A study of Mus musculus with 6 samples.

Results

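The antioxidant enzyme genes of the medial prefrontal cortex (mPFC) described here are 10 genes for enzymes that remove superoxide and peroxides or break down heme. They are the superoxide dismutases Sod1 and Sod2, catalase (Cat), the glutathione peroxidases Gpx1 and Gpx4, the peroxiredoxins Prdx1, Prdx2, Prdx3 and Prdx5, and heme oxygenase 1 (Hmox1). They were taken by gene name from the deposited table of 31763 genes, and all 10 were found. All 10 also passed the filter on low counts, among 18970 genes tested.

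RNA was sequenced from the mPFC of male C57BL/6J mice aged 8 to 10 weeks, with 3 saline and 3 morphine samples. Both groups went through conditioned place preference, a task in which a chamber is paired with a drug. Mice of the saline group received saline (10 ml/kg, i.p.) and those of the morphine group morphine (10 mg/kg, i.p.) over 5 training days. Tissue was taken on day 13, after a week in the home cage and a retrieval test, so morphine had last been given days earlier. Whether each library stands for a single mouse is not stated, and p-values here speak only for the spread among these 6 libraries, which may be technical.

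Superoxide leaks from the respiratory chain and is turned into hydrogen peroxide by superoxide dismutases, in the cytosol by SOD1 and in the mitochondrial matrix by SOD2. Hydrogen peroxide is then removed by catalase in peroxisomes, by glutathione peroxidases at the expense of glutathione, and by peroxiredoxins at the expense of thioredoxin. Heme oxygenase 1 cuts heme into biliverdin, iron and carbon monoxide, and its gene is a well known target of the transcription factor NRF2, which the protein KEAP1 holds back until thiols are oxidised. Neurons use much oxygen, while astrocytes hold much of the glutathione synthesis of brain tissue.

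The 10 genes lie on 8 chromosomes, so they form a group by function and not by position. Gpx1 and Gpx4 share a feature of their coding sequence: both are selenoenzymes, whose active site uses selenocysteine, which is read from a TGA codon that would otherwise stop translation. Of the 10 coding sequences, read from the GENCODE transcripts of GRCm38, these were the 2 with a TGA in frame ahead of their stop codon, at codon 47 of transcript Gpx1-201 and codon 129 of Gpx4-201. The annotation marks both codons as selenocysteine. The transcript of Gpx4 that GENCODE tags as principal is another, Gpx4-202, in which the codon was not numbered here. The stretches are shown for this codon, in capitals, with 24 bases on each side, 5′ to 3′ on the coding strand; the Gpx1 codon is at chr9:108339451-108339453 and the Gpx4 codon at chr10:80054737-80054739, both on the + strand.

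Gpx1: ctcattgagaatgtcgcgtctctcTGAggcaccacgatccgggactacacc

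Gpx4: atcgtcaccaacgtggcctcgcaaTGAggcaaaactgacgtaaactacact

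Promoter sequences, 250 bases before to 50 after each start, were taken from RefSeq (GRCm38.p6) for 9 of the 10 genes. The core of the antioxidant response element that NRF2 binds was searched on both strands as TGACNNNGC. It was found in the promoters of Prdx1 and Sod1, where it lies on the strand opposite to the gene and therefore reads as its reverse complement, and in 12.4% of 32851 promoter windows of all genes. These are shown because NRF2 targets are among the gene lists compared further on. The capitals mark the match. It begins 133 bases before the RefSeq start of Prdx1, in the window at chr4:116685442-116685498 (+ strand), and 56 bases before that of Sod1, in the window at chr16:90220682-90220738 (+ strand). A match of letters is not a site of binding.

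Prdx1: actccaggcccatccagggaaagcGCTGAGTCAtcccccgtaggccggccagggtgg

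Sod1: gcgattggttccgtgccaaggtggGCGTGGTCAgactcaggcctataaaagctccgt

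Total counts were 17984153 to 23529592 per library. Markers of cortical excitatory neurons were all present, 10 of 10, at a summed level of 7300 to 8510 normalized CPM (counts scaled to the effective size of each library) in saline and 8200 to 9010 in morphine. The library of saline sample 1 stood apart: all 11 genes of an olfactory bulb list were over 2 times as high there as in any other library, at a summed 344 CPM against 19.7 to 23.2 in the other 5. Values without that library are given for the 10 enzymes and for the genes named from related lists whose side of an unadjusted p of 0.05 it changes.

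Transcripts of the antioxidant enzymes differed widely in level, by FPKM, the deposited measure per length of the gene. Gpx4, which reduces lipid peroxides within membranes, was highest, at 58.4 ± 2.30 FPKM (SD, n = 6), above 97.6% of all tested genes. Prdx2, a cytosolic peroxiredoxin that is abundant in neurons, followed at 34.4 ± 2.23 and Sod2 at 26.3 ± 0.269. Prdx1 was at 22.2 ± 0.953, mitochondrial Prdx3 at 22 ± 1.57, Prdx5 at 18.4 ± 1.52 and Gpx1 at 17.3 ± 1.40 FPKM. Sod1 and Cat lay lower, at 11.2 ± 0.944 and 10.5 ± 0.751. Hmox1 was far below the others at 1.47 ± 0.295 FPKM, above 31.0% of tested genes.

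Over the 6 libraries the ranges of Gpx4 (55.5 to 61.6 FPKM), Prdx2 (31.7 to 38.2) and Sod2 (25.8 to 26.7) did not meet, and Hmox1 (1.02 to 1.82) stayed apart from Cat (9.48 to 11.4). Neighbours whose ranges overlapped were Prdx1 with Prdx3, Prdx3 with Prdx5, Prdx5 with Gpx1, and Sod1 with Cat. Overlap of ranges over all libraries does not show whether 2 genes keep their order within each library, which was not compared here.

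**Figure D1:**
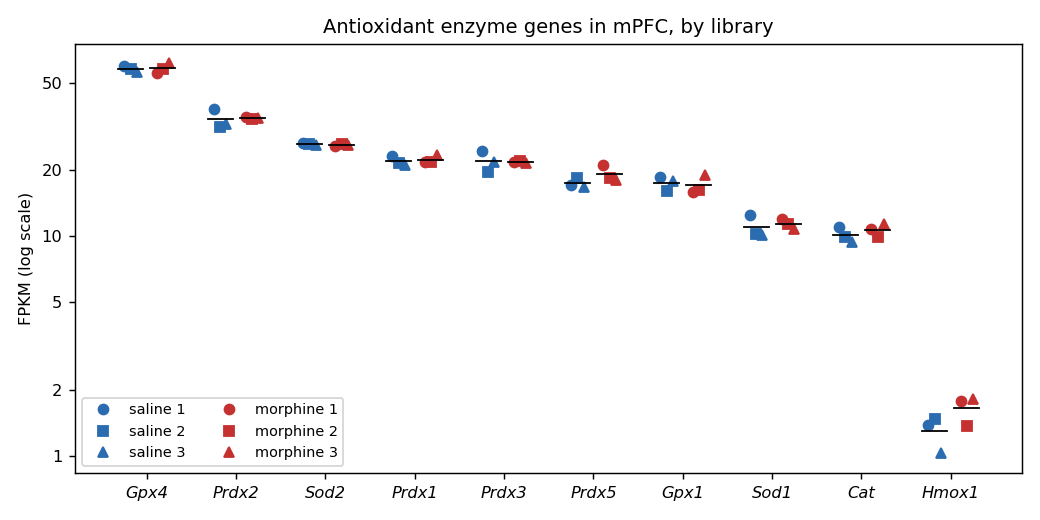
FPKM of the 10 antioxidant enzyme genes on a log axis, 1 point per library (blue saline, red morphine; circle, square and triangle for samples 1, 2 and 3), with a black bar for the mean of each group of 3. Genes run from Gpx4 at 58.4 to Hmox1 at 1.47 FPKM, and for each gene the points of both groups overlap.

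This order depends on the length used. For all 10 genes the length behind the deposited FPKM equals the union of all annotated exons, within 1 bp. For Sod1 that union is 3970 bp, since an annotated transcript keeps introns, whereas the principal transcript Sod1-201 has 641 bp. Per kilobase of the principal transcript, Sod1 was at 69.4 ± 5.85 CPM per kilobase (SD, n = 6) and moved from rank 8 to rank 4 of the 10. Prdx1, with 3043 bp of exons and 877 bp in its principal transcript, was at 77.2 ± 3.31 and moved from rank 4 to rank 2. Sod2 went from rank 3 to rank 5, and Prdx3, whose union and principal transcript are the same, from 5 to 8. Gpx4 stayed first and Cat and Hmox1 last by both lengths. Ranges over the libraries overlapped for Sod1 (63.1 to 77.3), Prdx2 (64.4 to 77.7) and Prdx1 (73.9 to 81.6). They also overlapped for Prdx3 (19.6 to 24.6) and Gpx1 (21.4 to 25.7). All counts of the gene were divided by the principal length, also those from exons outside that transcript, so these levels may be too high. The length is the same in every library, so it does not touch the comparison of morphine with saline.

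The comparison of morphine with saline asks whether transcripts of these enzymes differed after morphine place preference and withdrawal. None of the 10 genes differed at an adjusted p under 0.05 in edgeR's quasi-likelihood test, as was the case for all 18970 genes tested (0 calls, 0%). At the unadjusted threshold of p under 0.05 the count was also 0 of 10, against a background of 2.77% of tested genes higher and 4.96% lower in morphine; DESeq2 and limma on FPKM gave 0 of 10 at that threshold as well. For 0 of 10 genes did the 3 morphine libraries lie entirely on one side of the 3 saline libraries, which was the case for 13.3% of tested genes. The intervals were narrow: for 9 of the 10 genes the 95% interval of the difference lay within a change of 30% in either direction, the exception being Hmox1.

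**Figure D2:**
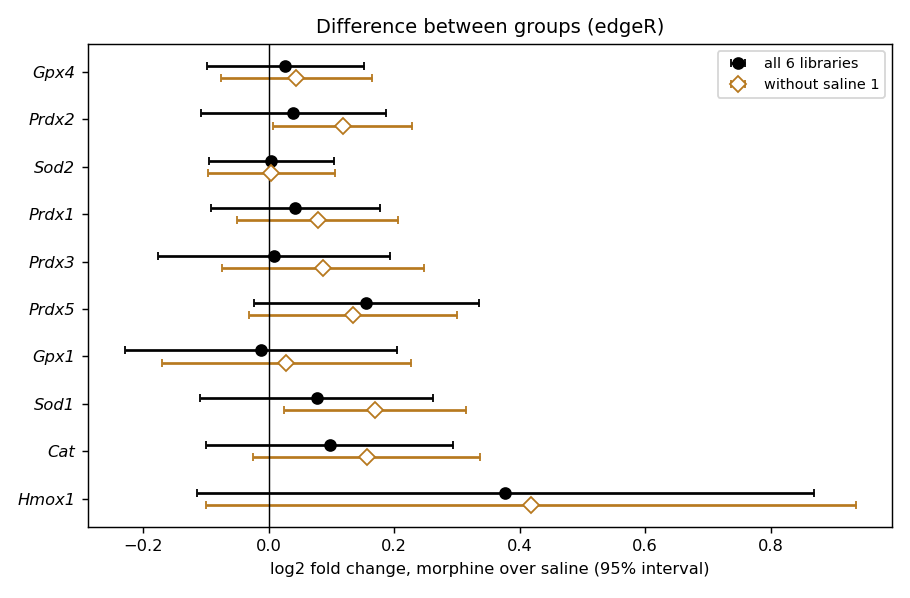
Log2 fold change of morphine over saline with its 95% interval for each antioxidant enzyme gene, from all 6 libraries (black circles) and without saline sample 1 (open diamonds). All intervals from 6 libraries include 0; without saline sample 1 those of Sod1 and Prdx2 lie above 0.

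Among superoxide dismutases, Sod2 (chr17:13006846-13040063, + strand), the manganese enzyme of mitochondria, was the steadiest of the 10. It stood at 262, 264 and 262 normalized CPM in saline samples 1 to 3 and at 262, 261 and 267 in morphine samples 1 to 3. The 6 libraries thus lay almost on one level, with a coefficient of variation of 0.920%. The median was 5.56% over the 6802 genes tested at a mean level no lower than that of any of the 10 but Hmox1. That set reaches down to the level of Gpx1, at 23.2 to 28.0 CPM, where counting noise weighs more than at the level of Sod2. Morphine and saline differed by 0.004 on the log2 scale (standard error 0.045), an interval from -6.41% to 7.45%. Sod1 (chr16:90220754-90226329, + strand), the copper and zinc enzyme of the cytosol, had 48.6, 41.0 and 40.3 CPM in saline and 48.5, 44.9 and 43.7 CPM in morphine. Saline sample 1 was the highest library and the other 2 saline libraries the lowest, so the groups overlapped. The groups differed by 0.076 on the log2 scale (standard error 0.083), an interval from -7.29% to 19.8%.

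Among enzymes that remove hydrogen peroxide, catalase, from Cat (chr2:103453849-103485160, - strand), splits it at the expense of neither glutathione nor thioredoxin. Cat had 28.4, 26.1 and 24.7 CPM in saline and 28.5, 25.8 and 30.4 CPM in morphine. Morphine sample 2 lay below saline samples 1 and 2, and the log2 fold change was 0.097 (standard error 0.089). Gpx1 (chr9:108338903-108340343, + strand), the main cytosolic glutathione peroxidase, was the only one of the 10 with a value below 0, at -0.013 (standard error 0.098). Its libraries held 26.3, 23.2 and 25.9 CPM in saline and 23.3, 23.3 and 28.0 CPM in morphine, and morphine sample 3 was again the highest. Gpx4 (chr10:80047166-80056439, + strand) had 102, 101 and 96.7 CPM in saline and 96.8, 99.7 and 108 CPM in morphine. The libraries of both groups were mixed, and the log2 difference was 0.026 (standard error 0.056), an interval from -6.65% to 11%.

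Among peroxiredoxins, Prdx1 (chr4:116685544-116700822, + strand) and Prdx2 (chr8:84969587-84974834, + strand) are cytosolic enzymes with a pair of reactive cysteines. Prdx1 had 69.8, 65.9 and 64.6 CPM in saline and 67.5, 65.7 and 72.8 CPM in morphine, a log2 fold change of 0.042 (standard error 0.061). Prdx2 had 114, 96.9 and 99.6 CPM in saline and 108, 104 and 107 CPM in morphine, a log2 fold change of 0.039 (standard error 0.066). In Prdx2 the 3 morphine libraries lay close together, between saline sample 1 and the other 2 saline libraries.

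Prdx3 (chr19:60864051-60874556, - strand), the peroxiredoxin of the mitochondrial matrix, had 35.6, 29.1 and 32.4 CPM in saline and 32.9, 32.2 and 32.6 CPM in morphine. The morphine libraries again lay close together, between saline samples 1 and 2 and around saline sample 3. Its morphine libraries differed by an SD of 0.315 CPM and its saline libraries by an SD of 3.26 CPM, while the means were 32.6 and 32.4 CPM. Prdx5 (chr19:6906697-6910106, - strand), which is found in mitochondria, peroxisomes and the cytosol, had the lowest p of the 10. It stood at 36.1, 39.6 and 35.8 CPM in saline and at 45.7, 39.0 and 39.5 CPM in morphine. Morphine sample 1 was above all others, while saline sample 2 lay above morphine samples 2 and 3. The log2 fold change was 0.155 (standard error 0.081), an interval from -1.64% to 26.1%, and the adjusted p was 0.672 in edgeR. Without morphine sample 1 its log2 fold change was 0.079.

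The heme oxygenase gene Hmox1 (chr8:75093621-75100589, + strand) had the largest log2 fold change of the 10, 0.377 (standard error 0.222), and the fewest counts, with 55, 55 and 35 in saline and 57, 43 and 75 in morphine. In normalized CPM these are 2.37, 2.59 and 1.79 in saline and 3.15, 2.37 and 3.24 in morphine. Saline sample 3 was the lowest library, and morphine sample 2 was no higher than saline sample 1. The interval ran from -7.69% to 82.6%, so the difference was bounded far less closely than for the other 9 genes. The adjusted p was 0.687 in edgeR.

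Of the 10 log2 fold changes 9 were above 0, with a median of 0.040, against 9002 of 18970 genes above 0 and a median of -0.009 over all genes tested. Among the 6802 tested genes at least as high as the lowest of the 10 but Hmox1, 3856 were above 0, at a median of 0.016. Some stood so close to 0 that 1 library decided their sign. Without morphine sample 3, the values were -0.007 for Sod2, -0.021 for Gpx4 and -0.003 for Prdx1. Without saline sample 2, they were -0.007 for Prdx2 and -0.063 for Prdx3. Gpx1 was above 0 without saline sample 1 (0.027), saline sample 3 (0.012), morphine sample 1 (0.031) or morphine sample 2 (0.030). The signs of the 10 values are therefore given as a description.

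The fit was repeated without saline sample 1, whose olfactory bulb markers were high. All 10 log2 fold changes were above 0 in it, at a median of 0.102. Of the 18671 genes tested in that fit, 9604 were above 0, at a median of 0.005. Genes of like level were not compared in that fit. Sod1 was then at 0.17 (standard error 0.07) and Prdx2 at 0.118 (standard error 0.053), each at an unadjusted p under 0.05 (0.0242 and 0.0383 in edgeR) and with all 3 morphine libraries above both saline libraries. That made 2 of 10 genes higher at an unadjusted p under 0.05, against 4.14% of tested genes higher and 7.53% lower. Both adjusted p-values missed the threshold, at 0.321 for Sod1 and 0.389 for Prdx2 in edgeR, while 186 of all tested genes (0.996%) passed it. The morphine libraries lay above both saline libraries in 13.1% of tested genes. Cat was at 0.156 without saline sample 1 and Prdx3 at 0.086, from 0.097 and 0.008 with it. The values of the others were 0.418 for Hmox1, 0.134 for Prdx5, 0.078 for Prdx1, 0.044 for Gpx4, 0.027 for Gpx1 and 0.004 for Sod2. Without saline sample 2, 1 of the 10 was at an unadjusted p under 0.05, Prdx5 at 0.204 with an adjusted p of 0.579 in edgeR, beside 3.48% of tested genes higher and 5.14% lower in that fit.

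The libraries differed from each other across several of the 10 genes. Morphine sample 3 was above the gene's mean over 6 libraries for 9 of 10 genes and was the highest library for 6 of them. Saline sample 3 was above the mean for 1 of 10 and the lowest library for 6. Saline sample 1 was above the mean for 7 and the highest library for 3, which were Sod1, Prdx2 and Prdx3. Morphine sample 2 was above the mean for 1 of 10. The summed level of the 10 genes was 725, 689 and 683 CPM in saline and 716, 698 and 733 CPM in morphine, so the lowest and the highest library belonged to different groups but the groups overlapped.

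**Figure D3:**
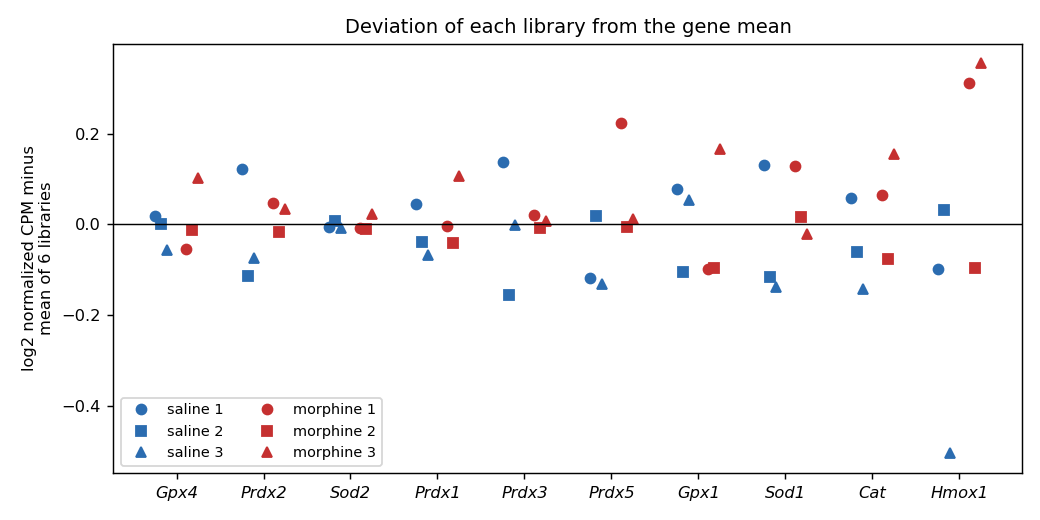
Log2 normalized CPM of each library minus the mean of the 6 libraries, for each antioxidant enzyme gene (colours and symbols as in the plot of levels). Sod2 stays between -0.010 and 0.024 in every library, Hmox1 spreads from -0.505 to 0.355, and saline sample 1 (blue circle) is on top for Prdx2, Prdx3 and Sod1.

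Several of these enzymes are abundant in particular cells, Prdx2 and Cat in red cells and Hmox1 in macrophages, so markers are given beside them. In bulk tissue, fewer cells of a type and less RNA per cell cannot be told apart. Red cell markers summed to 44.7 to 74.3 CPM in saline and 43.6 to 91.6 CPM in morphine, over 7 genes, of which none was at 0 in all libraries. Morphine sample 3 was the highest in red cell markers, at 91.6 CPM, and the highest for Cat, while Prdx2 was highest in saline sample 1, at 114 CPM against 107 in morphine sample 3. Markers of microglia and macrophages, 12 genes, summed to 303 to 316 CPM in saline and 305 to 331 CPM in morphine. The range was 6710 to 7320 CPM in saline and 7060 to 7740 CPM in morphine for 10 astrocyte markers, and 6680 to 7890 against 7110 to 8670 CPM for 12 mitochondrially encoded mRNAs. Tested markers at an unadjusted p under 0.05 numbered 0 of 5 in the red cell list and 0 of 12 in the microglial list. Higher were 1 of 10 in the astrocyte list and 3 of 10 in the mitochondrial list. Also higher were 2 of 10 excitatory neuron and 1 of 10 oligodendrocyte markers, with all 10 log2 fold changes above 0 in each list. Lower were 2 of 6 oligodendrocyte precursor, 1 of 2 choroid plexus and 6 of 8 olfactory bulb markers. The interneuron, endothelial and meningeal fibroblast lists had 0. Saline sample 1 was far above every other library in 3 of these lists. Choroid plexus markers summed to 9.13 CPM there against 1.58 to 3.98 in the other libraries. Olfactory bulb markers summed to 344 against 19.7 to 23.2, and interneuron markers to 987 against 534 to 600. Counts of genes in these lists therefore do not speak for the saline group as a whole. Over all genes tested, 2.77% were higher and 4.96% lower. The part of these markers in the values of the 10 enzymes was not tested.

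Other annotated genes can take up or lend reads to some of the 10. The study's methods name a directional library kit, which keeps the strand of the RNA. No source used here states whether counting used that strand. The exons of Prdx2 overlap those of Junb, an immediate early gene on the opposite strand, by 173 bp and those of Rnaseh2a, also on that strand, by 177 bp. Junb had 48.8, 47.3 and 55.3 CPM in saline and 36.6, 29.5 and 35.01 CPM in morphine, or -0.579 on the log2 scale (standard error 0.092), at an edgeR adjusted p of 0.310. Its groups did not overlap, and Prdx2 lay at 0.039 beside it. Prdx5 overlaps Trmt112, which encodes a methyltransferase activator on the opposite strand, by 409 bp. Trmt112 stood at 0.210 (standard error 0.126), with all 3 morphine libraries (6.68 to 7.26 CPM) above all saline libraries (5.82 to 6.12 CPM), and Prdx5 beside it at 0.155.

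Among near copies, 25.2% of the different 100-base stretches of the Gpx4 transcripts also occur in the transcribed pseudogene Gpx4-ps2. This pseudogene had 4, 4 and 6 counts in saline and 10, 7 and 8 in morphine, too few to be tested, beside 1753 to 2498 counts for Gpx4. For Sod2, 12.8% of such stretches occur in other genes, among them Rps6ka2 and the lincRNA AC166110.4; the former was at 0.030 (standard error 0.049) and the latter had at most 1 count in a library. Tdpx-ps1 shares 1.94% of the stretches of Prdx2 and had 24 to 64 counts. Such stretches made up 0.567% of Sod1 and 0.613% of Prdx1, and 0 were found for Cat, Gpx1, Prdx3 and Hmox1. Counts of the genes named here may therefore hold reads of these partners.

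The rest of the redox system was described by 6 lists written from general knowledge, with 145 of 173 genes tested. At an adjusted p under 0.05 in edgeR 0 of 145 passed, while 4 higher and 2 lower, 4.14% in all, were at an unadjusted p under 0.05, beside 2.77% higher and 4.96% lower over all genes. The groups did not overlap for 13 of the 145 genes (8.97%), beside the 13.3% of all tested genes.

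Thiol and peroxide enzymes outside the 10 had 0 genes higher and 1 lower of 27 at an unadjusted p under 0.05, at a median log2 fold change of 0.018. The lower one was Gpx3, the secreted glutathione peroxidase, with 4.005, 2.83 and 3.27 CPM in saline and 2.38, 2.59 and 2.29 CPM in morphine. All 3 morphine libraries were below saline, at -0.481 (standard error 0.200), and without saline sample 1 the value was -0.331. Srxn1 encodes sulfiredoxin, which restores overoxidised peroxiredoxins. It had 69.0, 67.8 and 68.1 CPM in saline and 76.2, 71.1 and 74.7 CPM in morphine, which is 0.116 on the log2 scale (standard error 0.053), with no overlap of the groups. Txnrd2, the mitochondrial thioredoxin reductase, was at -0.142 (standard error 0.1), and Txnip, which binds thioredoxin, at 0.173 (standard error 0.127).

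Glutathione synthesis and conjugation had 2 genes higher and 0 lower of 32, at a median of 0.031. These were Gstm5, a glutathione transferase, at 0.209 (standard error 0.077), and Gss, which completes glutathione synthesis, at 0.294 (standard error 0.129). Gss had 6.80, 6.73 and 6.89 CPM in saline and 7.68, 7.88 and 9.42 CPM in morphine, so that saline was tight and morphine lay above it throughout. Chac1, which degrades glutathione, stood at 0.260 and the transferase gene Gsta4 at 0.187, both at an unadjusted p above 0.05. Of the 32 log2 fold changes, 21 were above 0 and 11 below, from -0.566 to 0.492.

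The list of the KEAP1-NRF2 system and its targets also had 2 genes higher and 0 lower of 24, at a median of 0.037. Over all genes tested, 2.77% were higher and 4.96% lower. Of the 24 log2 fold changes, 16 were above 0 and 8 below, from -0.392 to 0.498. Cbr3, a carbonyl reductase, had 2.89, 3.11 and 2.19 CPM in saline and 3.43, 3.64 and 4.50 CPM in morphine, which is 0.498 on the log2 scale (standard error 0.202) without overlap. Me1, the cytosolic malic enzyme that makes NADPH, had 55.3, 56.1 and 57.1 CPM in saline and 62.4, 59.5 and 61.3 CPM in morphine, at 0.120 (standard error 0.054). Its difference was small but the groups did not overlap. Sqstm1, whose protein p62 binds KEAP1, was at 0.113 (standard error 0.057) and Ephx1, a microsomal epoxide hydrolase, at 0.186 (standard error 0.107).

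Heme and iron handling, the pathway of Hmox1, had 0 genes higher and 1 lower of 26, at a median of -0.004. The lower one was Ireb2, an iron-sensing regulator of mRNAs, with 146, 134 and 139 CPM in saline and 127, 133 and 126 CPM in morphine, at -0.117 (standard error 0.052). Ppox, of heme synthesis, stood at -0.227 (standard error 0.106), Fth1, the ferritin heavy chain, at 0.183 (standard error 0.087) and Alad, also of heme synthesis, at 0.158 (standard error 0.104).

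In the lists of selenoproteins, the machinery that Gpx1 and Gpx4 share (22 genes), and of sources of reactive oxygen (14 genes), 0 genes were at an unadjusted p under 0.05, with medians of 0.025 and 0.055. Dio3, the deiodinase that inactivates thyroid hormone, was at 0.634 (standard error 0.314) on 11 to 24 counts per library, and its groups did not overlap. Pstk and Sephs1, of selenocysteine synthesis, were at -0.187 and -0.171, and Selenof, of the endoplasmic reticulum, at 0.097. Among the sources Acox3 was at 0.147, Noxo1 at 0.491, Xdh at 0.221 and Maob at 0.166, each with an interval that includes 0.

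Of the 6 genes at an unadjusted p under 0.05, each was over that threshold when some 1 library was left out: the highest p among the 6 such fits was 0.157 for Gpx3, 0.0906 for Gstm5, 0.207 for Gss, 0.145 for Cbr3, 0.139 for Me1 and 0.144 for Ireb2.

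Without saline sample 1, 12 of the listed genes were higher and 0 lower at that threshold, where 4.14% of all tested genes were higher and 7.53% lower. An adjusted p of 0.05 was passed by 0 of them in edgeR and by 186 of all genes tested. Of the 6 genes, Gstm5 (0.170) and Cbr3 (0.544) kept an unadjusted p under 0.05 in that fit. Gpx3 (-0.331), Gss (0.299), Me1 (0.11) and Ireb2 (-0.083) were above it, with unadjusted p-values in edgeR of 0.157, 0.0565, 0.0849 and 0.126. Under it, beside those kept, were Srxn1 (0.125), Txnip (0.293), Sqstm1 (0.127), Dio3 (0.884), Selenof (0.156) and Maob (0.247), with adjusted p-values from 0.255 for Selenof to 0.409 for Srxn1 in edgeR. Without morphine sample 2, 7 listed genes were higher and 6 lower, where 3.95% of all tested genes were higher and 6.91% lower.

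**Figure D4:**
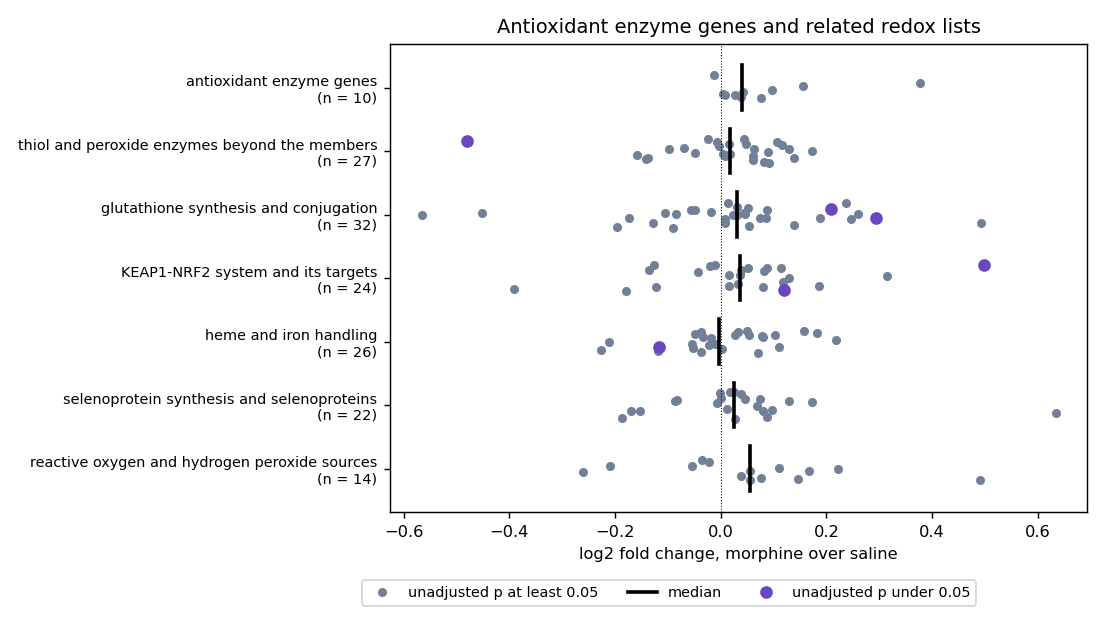
Log2 fold change of morphine over saline for the 10 antioxidant enzyme genes and the tested genes of 6 related lists, 1 point per gene, with a black bar at the median of each list (points are spread vertically only for legibility). The medians lie between -0.004 and 0.055, and the larger purple points mark the 6 genes at an unadjusted p under 0.05.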

How the data were processed

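The authors deposited 1 table of the 6 mPFC libraries, which gives for every gene its raw read count and its FPKM. The submitters' processing notes list, without roles, the build mm10, the aligner HISAT2 2.1.0, the trimmer cutadapt 1.9.3, StringTie 1.3.3, HTSeq 0.11.2, and the packages limma 3.40.6, DESeq 1.8.3 and DESeq2 1.26.0. The deposited FPKM equals the count per length and library total (13342 genes with at least 50 counts in each library).

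A gene was tested where 3 or more of the 6 libraries held 10 counts or more. Counts were scaled by TMM, and edgeR 4.0.16 (R 4.3.3) supplied the quasi-likelihood test, two-sided, with Benjamini-Hochberg adjustment over all genes tested. The study's DEGseq, which takes no account of replicate spread, was not used here. The standard error is the log2 fold change over the square root of F. The 10 genes and all lists were chosen with earlier results of these data known. The genes named from each related list are up to 4 of lowest p, plus genes that overlap or share sequence with one of the 10.

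Principal transcripts are those that GENCODE M21 (GRCm38) tags so. On simulated data with 18719 genes, edgeR recovered 54.5% of genes changed by 1.5-fold, 77.6% by 2-fold and 98.4% by 4-fold. No pair of replicates agreed within sampling noise (chi-square 2.91 to 14.7 times its degrees of freedom). Alternatives were DESeq2 1.42.0, RLE factors, 2 other count filters, the replicate number as a block, limma 3.58.1 on log2(FPKM + 0.1), with and without an FPKM minimum of 0.1, and on log2(FPKM + 1), and each library left out.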

Additional observations from a re-analysis of the deposited data

How the results depend on the processing

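With 3 libraries per group, Hmox1 had the fewest counts (35 to 75) and the widest interval of the 10. The part of counting depth in that width was not tested. At an adjusted p under 0.05, 0 of the 10 enzymes and 0 genes of the related lists passed under any alternative, and the adjusted p of the 10 ranged from 0.321 to 1. Their log2 fold changes kept their direction in 51 of 60 values with 1 library left out and in 74 of 80 under the other settings. On FPKM, Sod2 turned to -0.015 (log2(FPKM + 0.1), with or without filter) and -0.014 (log2(FPKM + 1)), and Prdx3 to -0.005 in these 3 settings. With 1 library left out the ranges were -0.007 to 0.010 for Sod2, -0.110 to 0.031 for Gpx1, -0.021 to 0.059 for Gpx4, -0.003 to 0.078 for Prdx1, -0.007 to 0.118 for Prdx2 and -0.063 to 0.086 for Prdx3. The number of the 10 at an unadjusted p under 0.05 was 0 to 2 in those fits.

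In the related lists 4 higher and 2 lower genes had an unadjusted p under 0.05. They came to 2 higher and 0 lower in DESeq2, to 1 lower with RLE factors, no count filter, log2(FPKM + 0.1) or log2(FPKM + 1), and to 2 higher with no filter on FPKM. With 1 library left out they ranged from 0 to 12 higher and from 0 to 6 lower; the numbers were 0 and 0 without saline sample 3, 1 and 0 without morphine sample 3, and 3 and 1 without morphine sample 1. Over all genes tested, the shares in these 6 fits ranged from 1.33% to 4.14% higher and from 2.37% to 7.53% lower. Over all genes, 0 passed an adjusted p of 0.05 in edgeR, 16 in DESeq2, 279 with no count filter, 4 on log2(FPKM + 0.1), and 0 to 186 with 1 library left out, 186 being without saline sample 1. The cause of these differences was not tested.

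With the replicate number as a block, 0 of the 10 enzymes and 1 higher and 0 lower genes of the related lists were at an unadjusted p under 0.05. Same-numbered samples correlated at 0.019, 0.010 and -0.032 in their deviations from the group means. Not every sample correlated best with its own number. With 3 libraries per group these values cannot decide whether same-numbered samples were handled together.

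Per kilobase of the principal transcript, a length chosen after seeing the data, levels were 105 for Gpx4, 70.0 for Prdx2, 44.9 for Sod2, 77.2 for Prdx1, 31.1 for Prdx5, 23.3 for Gpx1 and 69.4 for Sod1.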
